A study of Mus musculus with 12 samples.

Results

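The 9 genes described here bring glucose into a cell and commit it to metabolism, and were followed across subcutaneous fat and liver: the glucose transporters Slc2a1, Slc2a2, Slc2a3 and Slc2a4, the hexokinases Hk1, Hk2, Hk3 and Hkdc1, and the glucokinase regulatory protein gene Gckr. They were chosen by their symbols and are 9 of the 54532 mouse genes in the count table, each listed once. The tissues came from male mice on a low-fat diet that had received 1 injection of adeno-associated virus serotype 8 at 10 weeks of age, and RNA was taken 16 weeks later. The null mice received the vector with the thyroxine-binding globulin promoter (TBGp) alone, and the hHKDC1 OE mice received the same vector with full-length human HKDC1. This promoter is active in hepatocytes, so in fat the comparison concerned a tissue in which the transgene was not meant to be expressed. Each of the 4 groups (null fat, hHKDC1 OE fat, null liver and hHKDC1 OE liver) had 3 libraries, 12 in all. Nothing in the labels says whether a fat library and a liver library came from the same mouse, and p-values measure the spread between these libraries only.

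Glucose crosses the plasma membrane down its gradient through the GLUT proteins, which the Slc2a genes encode. GLUT1 (Slc2a1) serves basal uptake in most tissues, GLUT2 (Slc2a2) is the low-affinity carrier of hepatocytes and pancreatic beta cells, GLUT3 (Slc2a3) is the high-affinity carrier of neurons and of some blood cells, and GLUT4 (Slc2a4) is moved to the surface of fat and muscle cells by insulin. Hexokinases then phosphorylate glucose and so trap it. Hexokinase 1 and hexokinase 2 can bind the outer mitochondrial membrane, hexokinase 3 is best known from myeloid white blood cells, and HKDC1 is the hexokinase family member named for its hexokinase domains. Gckr encodes a liver protein that holds glucokinase inactive in the nucleus.

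A library held between 15496019 and 19954971 counts on genes. The titles and the study place 3 libraries of each tissue under hHKDC1 OE, but the sample descriptions call replicates 2 and 3 of both tissues knockouts, so each comparison with hHKDC1 OE is also given below without them. All 10 hepatocyte markers and all 8 adipocyte markers had counts in their own tissue: the hepatocyte markers summed to 156870 to 166155 normalized CPM in null liver, and the adipocyte markers to 15388 to 22009 CPM in the 6 fat libraries. Fat libraries differed in other cell types. All 8 skeletal muscle markers were found in both fat groups, and summed to 14653, 17577 and 442 CPM under the null vector and to 12610, 867 and 2101 CPM under hHKDC1 OE. All 6 B cell markers were found too, and their sum ranged from 1.16 to 2.00 CPM under null and from 32.2 to 589 CPM under hHKDC1 OE. The 6 T cell markers summed to 2.94 to 7.68 CPM and 22.5 to 350 CPM respectively. Normalized CPM are CPM, counts scaled to the size of the library, after edgeR's TMM scaling over the 12 libraries. In bulk tissue, fewer cells of a type and less RNA per cell cannot be told apart.

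Hkdc1, the mouse gene of the same name as the transgene, was at the edge of detection in every library. It lies at chr10:62383137-62422491 on the minus strand (ENSMUSG00000020080), 3228 bases from Hk1, its neighbour on the same strand. Null liver had 8, 4 and 1 counts in replicates 1 to 3, and hHKDC1 OE liver had 6, 8 and 2. The sums were 13 counts (exact 95% Poisson interval, 6.92 to 22.2) and 16 counts (9.15 to 26.0), so no difference between the vectors was detectable at this depth. Null fat had 1, 0 and 7 counts, and all 3 hHKDC1 OE fat libraries had 0. The exact 95% Poisson interval for their sum of 0 counts was 0 to 3.69. As a limit for a single library, a count of 0 was taken to allow up to 3 counts, or 0.107 to 0.138 normalized CPM. Such intervals and limits cover counting error only. Hkdc1 passed the filter on low counts in no comparison and was not tested. Reads of the human transgene were not analysed here: the table holds mouse genes, and whether human HKDC1 reads were counted on mouse Hkdc1 was not tested. The table therefore gives no check of the overexpression.

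**Figure D1:**
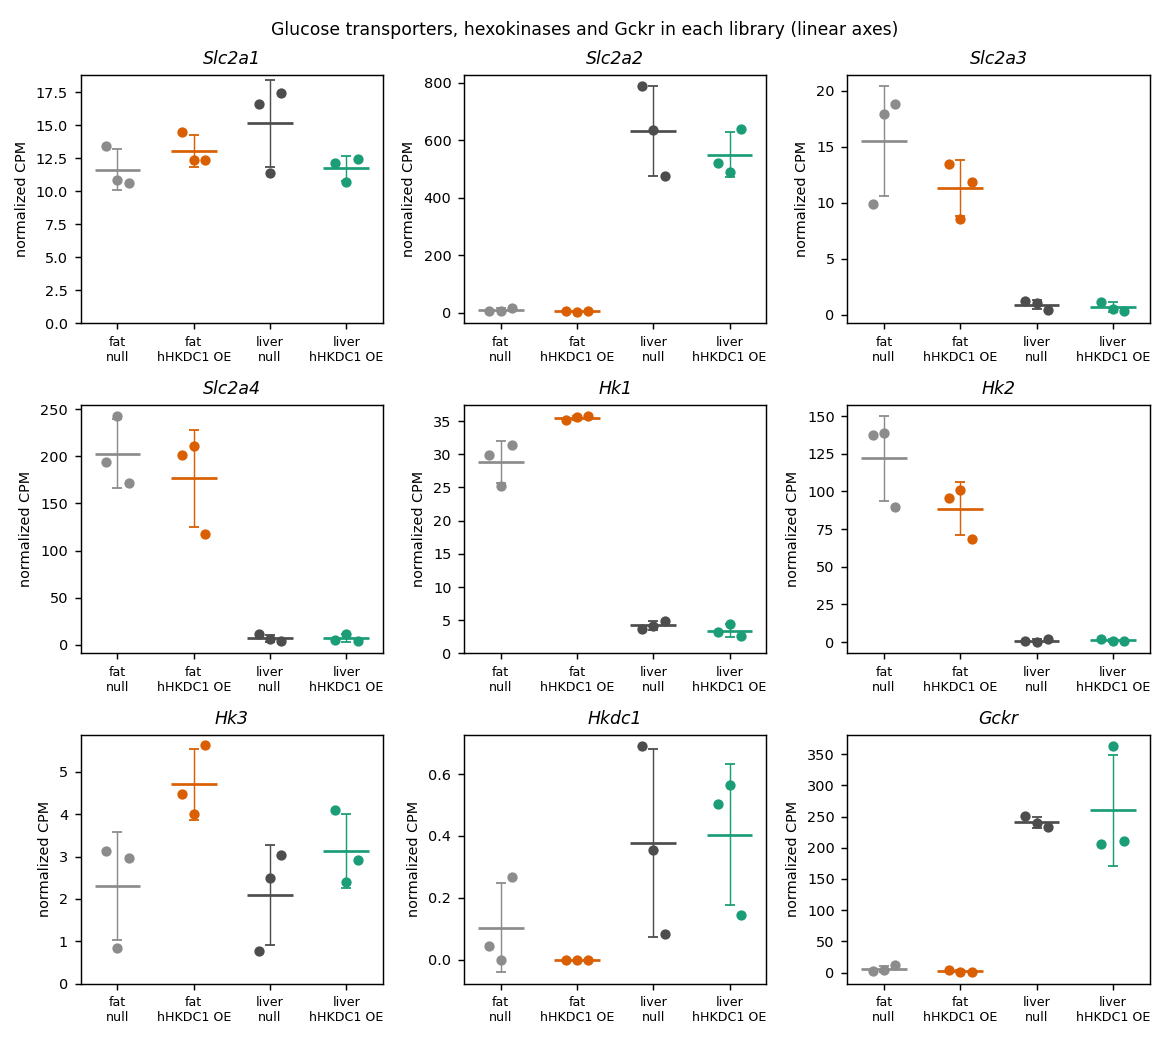
Normalized CPM of each gene in the 12 libraries, with a linear axis of its own for each gene. Points are libraries, thick lines are group means and bars are the SD (n = 3). Slc2a4, Slc2a3, Hk1 and Hk2 were high in fat, and Slc2a2 and Gckr were high in liver. Hkdc1 never exceeded 0.690 CPM.

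The first comparison set null fat against null liver, which shows where each gene is used when no transgene is present. Hk2, Slc2a4, Slc2a3 and Hk1 were higher in fat, and Slc2a2 and Gckr were higher in liver, by 6.82-fold to 136-fold. Slc2a1 and Hk3 did not pass the test. Of the 8 genes tested, 4 were therefore called higher and 2 lower in fat at an adjusted p under 0.05 in edgeR's quasi-likelihood test, where 33.8% of all 15259 tested genes were higher and 30.5% were lower. Most tested genes therefore differed between these tissues.

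Slc2a4, the insulin-responsive transporter (chr11:69942539-69948188, minus strand, ENSMUSG00000018566), had 194, 243 and 172 normalized CPM in the 3 null fat libraries and 11.1, 5.69 and 3.70 in null liver. Every fat library lay far above every liver library, and the log2 fold change was 4.89 (SE 0.40, 29.7-fold, adjusted p = 2.67e-05, edgeR). The liver level was 1.83% to 5.85% of the null fat mean over the 6 liver libraries, while the adipocyte markers in the same libraries stood at 0.136% to 0.329% of theirs. In each liver library the Slc2a4 percentage was 5.55 to 23.4 times the adipocyte marker percentage. Liver held 44 to 168 counts of Slc2a4 per library.

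Slc2a2, the hepatocyte carrier (chr3:28697903-28731359, plus strand, ENSMUSG00000027690), had the opposite pattern. Null liver had 788, 634 and 477 normalized CPM, and null fat had 7.43, 7.58 and 16.4. The tissues did not overlap, and the log2 fold change of fat over liver was −5.91 (SE 0.42, adjusted p = 1.46e-05, edgeR), or 60.1-fold lower in fat. The third null fat library was the highest of the 6 fat libraries for Slc2a2 and for the hepatocyte markers, which summed to 1930, 1985 and 5767 CPM in null fat.

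Slc2a3 (chr6:122727809-122801640, minus strand, ENSMUSG00000003153) had 9.86, 17.9 and 18.8 normalized CPM in null fat and 1.21, 1.07 and 0.421 in null liver, where 5 to 14 counts lay behind each value. Its log2 fold change was 4.11 (SE 0.44, 17.3-fold, adjusted p = 9.44e-05, edgeR). Another gene model, Gm4482, lies inside Slc2a3 on the same strand and held 8 to 39 counts in liver and 54 to 87 in fat. How reads on both models were counted is not known, so the level of Slc2a3 is uncertain in both tissues. The endothelial markers, all 6 of them found in every group, summed to 676 to 743 CPM in null fat and 75.9 to 128 CPM in null liver, and their part in this difference was not tested.

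Slc2a1 (chr4:119108711-119137983, plus strand, ENSMUSG00000028645), the basal carrier, was at like levels in both tissues. Null fat had 13.4, 10.9 and 10.6 normalized CPM and null liver had 16.6, 11.4 and 17.4, with overlap. The log2 fold change was −0.38 (SE 0.22, 95% confidence interval −0.88 to 0.13, adjusted p = 0.162, edgeR). It turned to 0.51 with library size alone as the scaling (adjusted p = 0.0627), and without the second null liver library it passed the test at −0.56 (adjusted p = 0.0481). Over the other alternatives and libraries left out, the adjusted p lay at or below 0.404.

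Among the hexokinases, Hk2 (chr6:82725025-82774454, minus strand, ENSMUSG00000000628) differed most between the tissues. Null fat had 138, 139 and 89.6 normalized CPM, from 2335 to 3166 counts. Null liver had 0.690, 0.0889 and 1.85, from 8, 1 and 22 counts. The log2 fold change was 7.09 (SE 0.58, 136-fold, adjusted p = 2.75e-05, edgeR), and its size rests on those few liver counts. Leaving out 1 library at a time gave 6.56 to 8.24. The skeletal muscle markers, all 8 found in both null groups, summed to 14653, 17577 and 442 CPM in the same fat libraries and to 24.3 to 40.9 CPM in null liver, and their part in this difference was not tested.

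Hk1, the broadly expressed hexokinase (chr10:62268855-62379908, minus strand, ENSMUSG00000037012), had 29.9, 25.2 and 31.4 normalized CPM in null fat and 3.62, 4.18 and 4.88 in null liver. It was 6.82-fold higher in fat (log2 fold change 2.77, SE 0.19, adjusted p = 1.22e-05, edgeR). Hk3 (chr13:55005985-55021385, minus strand, ENSMUSG00000025877) stood at 3.13, 0.847 and 2.96 CPM in null fat and 0.776, 2.49 and 3.03 in null liver. The groups overlapped, the log2 fold change was 0.14 (SE 0.64, adjusted p = 0.859), and its 95% interval of −1.34 to 1.62 leaves room for a change in either direction. Its sign turned when null liver replicate 1 (−0.27), null fat replicate 1 (−0.08) or null fat replicate 3 (−0.06) was left out.

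Gckr (chr5:31297443-31327314, plus strand, ENSMUSG00000059434), the inhibitor of the set, followed Slc2a2. Null liver had 251, 239 and 233 normalized CPM. Null fat had 2.65, 3.84 and 11.9. The log2 fold change of fat over liver was −5.29 (SE 0.57, 39.1-fold lower in fat, adjusted p = 9.93e-05, edgeR). Its highest fat library was again the third of null fat.

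**Figure D2:**
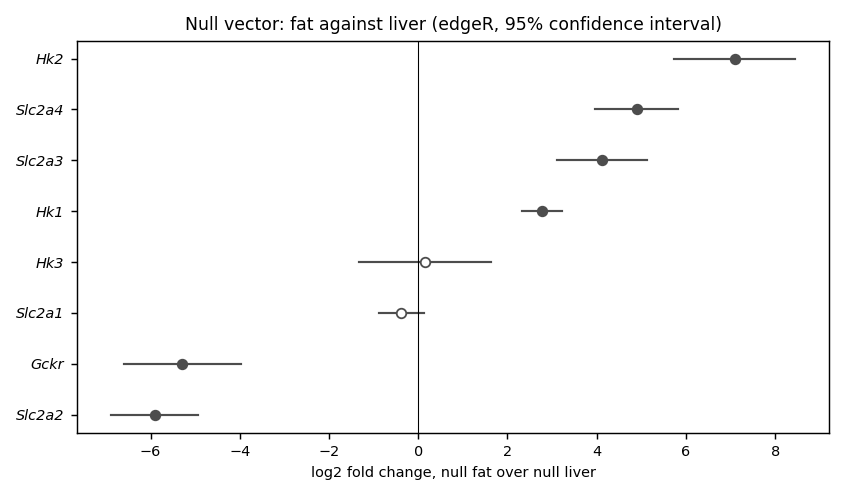
Log2 fold change of null fat over null liver for the 8 genes tested, with 95% confidence intervals (3 libraries against 3). Filled points passed the test at an adjusted p under 0.05 and open points did not. Hk2 stood highest at 7.09 and Slc2a2 lowest at −5.91. Hk3 and Slc2a1 had intervals that include 0.

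The promoter sequences of Hk2 and Slc2a2, the genes with the largest difference in each direction, are shown for the 250 bases before the transcription start in RefSeq (build GRCm38.p6, 5′ to 3′ on the gene's strand). Hk2 is at chr6:82774455-82774704 on the minus strand and Slc2a2 at chr3:28697653-28697902 on the plus strand. Capitals mark the letters of 2 motifs found on either strand, the CCAAT box (CCAAT, or ATTGG on the other strand) and the GC box (GGGCGG, or CCGCCC).
Hk2: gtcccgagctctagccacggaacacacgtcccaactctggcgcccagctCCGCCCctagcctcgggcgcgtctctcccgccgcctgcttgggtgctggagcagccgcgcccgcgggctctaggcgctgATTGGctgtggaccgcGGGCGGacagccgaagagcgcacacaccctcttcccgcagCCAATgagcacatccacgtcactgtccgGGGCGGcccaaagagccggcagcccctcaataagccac
Slc2a2: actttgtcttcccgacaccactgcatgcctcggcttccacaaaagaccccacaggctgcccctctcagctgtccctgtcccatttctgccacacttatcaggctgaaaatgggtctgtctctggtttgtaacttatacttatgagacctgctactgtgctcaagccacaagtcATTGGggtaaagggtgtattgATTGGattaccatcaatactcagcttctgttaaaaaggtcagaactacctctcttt

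The Hk2 window held 3 GC boxes, which begin 201, 106 and 38 bases before the start, and CCAAT boxes at 122 and 66 bases. The Slc2a2 window held CCAAT boxes at 77 and 56 bases and no GC box. Of 32841 promoter windows of this length, 33.9% held a CCAAT box and 32.7% a GC box. The letters GTTAAT (6.43% of windows), CACGTG (6.02%) and TATAAA (12.4%), searched on both strands, were in neither window.

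Per kilobase of gene length, which allows levels of different genes to be compared, the order in null fat was Slc2a4 (58.3 ± 10.4 CPM per kilobase, SD, n = 3), Hk2 (20.4 ± 4.70), Hk1 (3.38 ± 0.376), Slc2a1 (3.32 ± 0.440), Slc2a3 (2.14 ± 0.679), Slc2a2 (1.82 ± 0.895), Gckr (1.41 ± 1.16), Hk3 (0.627 ± 0.345) and Hkdc1 (0.0203 ± 0.0281). Slc2a4 and Hk2 each stood clear of the next gene in this order, and Hk1 overlapped Slc2a1. From Slc2a3 to Hk3 each gene overlapped the next, and Hk3 stood clear of Hkdc1. In null liver Slc2a2 (110 ± 27.1 CPM per kilobase) and Gckr (55.6 ± 2.06) led, followed by Slc2a1 (4.32 ± 0.938), Slc2a4 (1.97 ± 1.10), Hk3 (0.570 ± 0.320), Hk1 (0.495 ± 0.0742), Hk2 (0.147 ± 0.150), Slc2a3 (0.124 ± 0.0579) and Hkdc1 (0.0734 ± 0.0591). There the first 4 genes each stood clear of the next, Hk3 overlapped Hk1, and the last 3 overlapped each other.

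Within each library, these levels gave the makeup of the transporter and hexokinase RNA. Slc2a4 made up 88.6 ± 2.96% of the summed per-kilobase level of Slc2a1 to Slc2a4 in null fat (SD, n = 3), and Slc2a2 made up 94.4 ± 1.24% in null liver. Hk2 made up 82.9 ± 5.66% of the hexokinase sum in null fat, with Hk1 at 14.3 ± 4.03%. No gene led in null liver, where the sum is small: Hk3 took 23.8%, 54.1% and 47.8% in the 3 libraries, Hk1 40.1 ± 7.40%, Hk2 10.8 ± 8.65% and Hkdc1 7.23 ± 7.26%. Slc2a4 exceeded Slc2a1 17.8 ± 4.16 times in null fat, while Slc2a2 exceeded Slc2a1 26.5 ± 8.88 times in null liver.

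**Figure D3:**
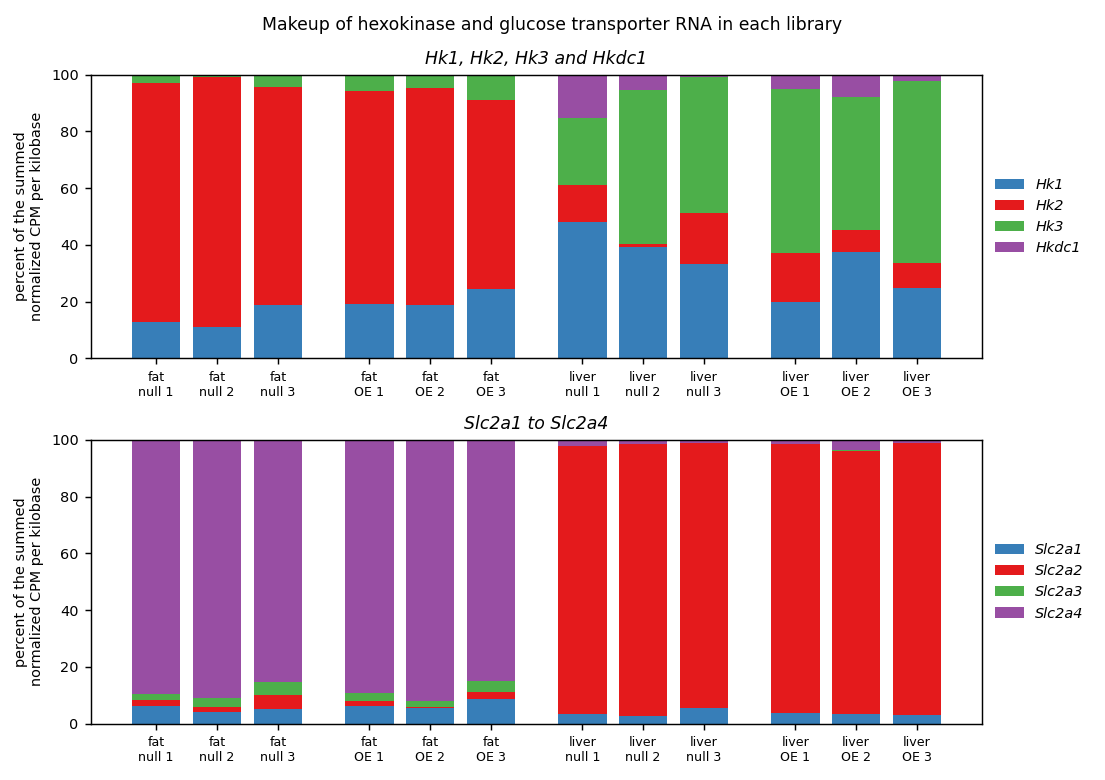
Percent of the summed normalized CPM per kilobase taken by each gene in every library, for the 4 hexokinases (top) and for Slc2a1 to Slc2a4 (bottom). Each bar is 1 library. Slc2a4 filled 84.9% to 92.2% of the transporter bar in fat and Slc2a2 filled 92.9% to 95.8% in liver, under both vectors. The hexokinase bars were mostly Hk2 in fat and mixed in liver.

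Genes of the surrounding pathway were read from lists of related genes, and each list's calls stand beside the 33.8% of all tested genes that were higher and the 30.5% that were lower in fat. Of the other facilitative sugar transporters, 6 of 8 were tested between null fat and null liver, 3 were higher in fat and 2 lower, and the median log2 fold change was 2.44, beside 0.09 over all genes tested. Slc2a13, the proton-coupled inositol carrier, was higher in fat (36.7 ± 15.4 against 0.466 ± 0.317 normalized CPM, log2 fold change 6.29, SE 0.51, adjusted p = 2.52e-05, edgeR). Slc2a9, a urate carrier, was lower (4.21 ± 1.28 against 52.3 ± 3.32 CPM, log2 fold change −3.62, SE 0.23, adjusted p = 8.83e-06). Of the 7 sodium-coupled sugar transporters 1 was tested, Slc5a1, at 0 to 2 counts in null fat and 15 to 19 counts in null liver, and it was called lower in fat (adjusted p = 0.000805).

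Of the 14 enzymes that make, release or branch from glucose 6-phosphate, 3 were higher in fat and 6 lower, with a median of −0.40. Over all tested genes 33.8% were higher and 30.5% lower. G6pdx, the entry enzyme of the pentose phosphate pathway, had 169 ± 17.3 CPM in null fat and 6.05 ± 1.22 in null liver (log2 fold change 4.80, SE 0.20, adjusted p = 2.1e-06, edgeR). Gys2, the liver glycogen synthase, had 37.0 ± 0.485 and 389 ± 47.9 CPM (log2 fold change −3.39, SE 0.16, adjusted p = 3.17e-06). Of the 18 genes of GLUT4 vesicle traffic, the machinery that carries GLUT4 to the surface, 13 were higher in fat and 1 lower. Over all tested genes the shares were again 33.8% and 30.5%, and the median of the list was 1.22. Sort1, which encodes the sorting receptor sortilin of GLUT4 vesicles, had 424 ± 12.3 CPM in null fat and 12.3 to 17.7 in null liver (log2 fold change 4.83, SE 0.20, adjusted p = 2.08e-06). None of the 3 voltage-dependent anion channels, which dock hexokinases on mitochondria, passed the test. Vdac2 was at 116 ± 18.7 CPM in null fat and 135 ± 6.85 in null liver, and Vdac3 at 58.4 to 103 and 97.5 to 128. With library size alone as the scaling Vdac2 (0.66, adjusted p = 0.00303) passed as higher in fat and Vdac3 (0.46) changed sign. With the replicate number as a block in edgeR, Vdac3 passed as lower in fat (−0.45, adjusted p = 0.0312).

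With library size alone as the scaling, the median of all genes between null fat and null liver moved from 0.09 to 0.98 and the calls from 5163 higher and 4647 lower to 9012 higher and 2286 lower. The 6 calls among Hk1, Hk2, Slc2a2, Slc2a3, Slc2a4 and Gckr kept their direction and side of the threshold under that scaling.

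The second comparison set hHKDC1 OE against null in subcutaneous fat and asked whether a liver-directed transgene goes with a change of glucose uptake genes in a distant tissue. None of the 8 genes tested passed the test, and edgeR called 0% of the 16380 genes tested. Of all genes, 17.7% had an unadjusted p under 0.05, DESeq2 called 1446 and limma called 1 on log2(FPKM + 1) and 0 on log2(FPKM + 0.1). None of these tools called any of the 8. In 3 of the 8 genes the libraries of the 2 groups did not overlap, Hk1 and Hk3 above and Slc2a2 below null, where 22.3% of all genes did not overlap. The median log2 fold change of the 8 genes was −0.39, beside −0.05 over all genes tested.

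Slc2a2 in fat had 7.43, 7.58 and 16.4 normalized CPM in null and 6.51, 2.56 and 4.98 in hHKDC1 OE. All hHKDC1 OE libraries lay below all null libraries, the closest pair being 6.51 and 7.43. The log2 fold change was −1.22 (SE 0.46, adjusted p = 0.241, edgeR), the only unadjusted p under 0.05 among the 8 genes at 0.0313, and the exact permutation test gave p = 0.1, the smallest that 3 libraries against 3 allow. With 1 library left out the value lay between −1.53 and −0.77, the smaller change when null replicate 3 was dropped. Gckr had 2.65, 3.84 and 11.9 CPM in null and 5.05, 1.51 and 1.29 in hHKDC1 OE, with overlap (log2 fold change −1.28, SE 0.74, adjusted p = 0.394). Leaving out 1 library at a time gave −2.17 to −0.40 for Gckr, the first with hHKDC1 OE replicate 1 left out and the last with null replicate 3 left out, and without both libraries described as knockouts it was −0.35.

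The hepatocyte markers moved in the same direction as these genes in fat. All 10 had counts in both groups and none was at 0, all 10 had a negative log2 fold change without passing the test (median −1.52), and their sum was 1930, 1985 and 5767 CPM in null and 1627, 572 and 875 CPM in hHKDC1 OE. For each 1000 CPM of hepatocyte markers, fat Slc2a2 stood at 3.51 ± 0.569 CPM under null and 4.72 ± 0.876 under hHKDC1 OE, beside 3.93 ± 0.856 in null liver. Gckr stood at 1.79 ± 0.364 and 2.41 ± 0.839 in fat and 1.49 to 1.51 in null liver. Taken as a percentage of null liver, Slc2a2 was 0.404% to 2.6% in the 6 fat libraries and the markers 0.357% to 3.60%, and the ratio of the 2 percentages lay between 0.722 and 1.44. For Gckr that ratio was 0.913 to 2.06. The part of the marker sum in either difference was not tested.

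**Figure D4:**
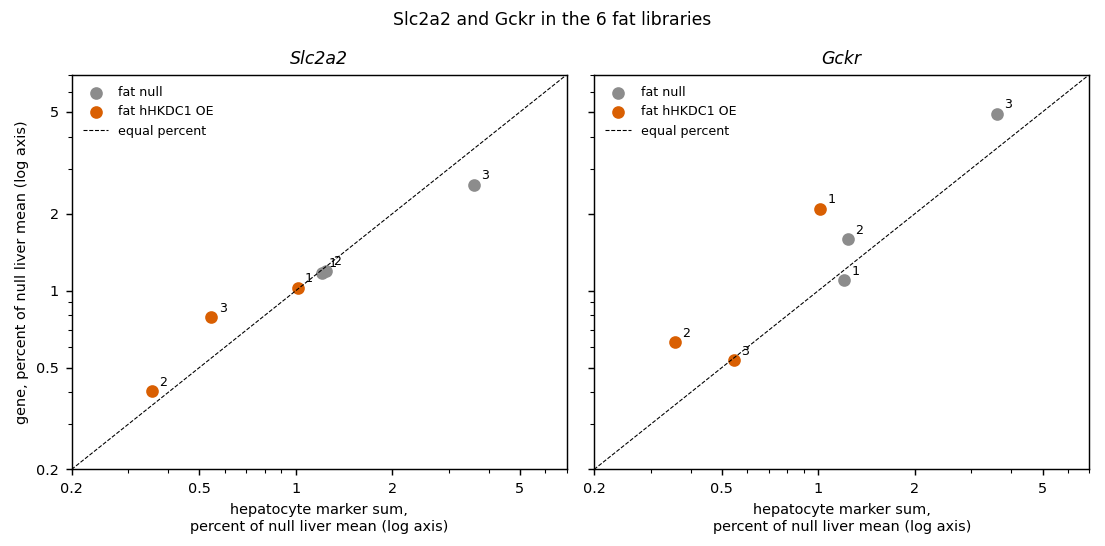
Slc2a2 (left) and Gckr (right) in each of the 6 fat libraries, as a percentage of the null liver mean, against the summed hepatocyte markers as a percentage of theirs. Both axes are logarithmic, numbers are replicates, and the dashed line marks equal percentages. Over the marker range of 0.357% to 3.60%, the libraries stand at 0.722 to 1.44 times the line for Slc2a2 and 0.913 to 2.06 times for Gckr, with null replicate 3 farthest to the right in both panels.

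Hk3 in fat had 3.13, 0.847 and 2.96 normalized CPM in null and 4.48, 4.0 and 5.63 in hHKDC1 OE. The groups did not overlap, and the log2 fold change of 0.96 (SE 0.50, 95% interval −0.22 to 2.14) had an adjusted p of 0.356 (edgeR). With 1 library left out the value lay between 0.53, when null replicate 2 was dropped, and 1.2. The summed markers of myeloid cells were higher in the same libraries, although none of them passed the test singly: 6 of 6 neutrophil and monocyte markers tested and 7 of 8 macrophage markers had a log2 fold change above 0. Of 8 neutrophil and monocyte markers 7 had counts under null, with Mpo at 0, and 8 under hHKDC1 OE, and the sums were 76.3 to 160 CPM and 257 to 706 CPM. All 8 macrophage markers were found in both, at 134 to 305 and 386 to 510 CPM. Per 1000 CPM of macrophage markers Hk3 stood at 9.44 ± 3.00 CPM under null and 10.3 ± 1.49 under hHKDC1 OE. Per 1000 CPM of neutrophil and monocyte markers it stood at 16.8 ± 4.93 and 10.4 ± 4.44. Their part in the Hk3 difference was not tested. The end of Hk3 overlaps that of Unc5a on the opposite strand, which held 276 to 1114 counts in fat, and the libraries kept no strand information.

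Hk1 in fat had 29.9, 25.2 and 31.4 normalized CPM in null and 35.1, 35.6 and 35.7 in hHKDC1 OE, again without overlap. The difference was 1.18-fold (log2 fold change 0.24, SE 0.14, adjusted p = 0.392, edgeR), and with 1 library left out the log2 value lay between 0.11, when null replicate 2 was dropped, and 0.29. Hk2, the main hexokinase of fat, had 138, 139 and 89.6 CPM in null and 95.9, 101 and 68.7 in hHKDC1 OE. The groups overlapped through the third null library, and the log2 fold change was −0.52 (SE 0.24, 95% interval −1.08 to 0.04, adjusted p = 0.306). Within each library, Hk2 exceeded Hk1 per kilobase 6.58, 7.86 and 4.08 times in null and 3.90, 4.06 and 2.75 times in hHKDC1 OE. Hk2 took 82.9 ± 5.66% of the hexokinase sum in null and 72.7 ± 5.17% in hHKDC1 OE. Skeletal muscle, which also uses Hk2 and Slc2a4, had a marker sum of 12610 CPM or more in null replicates 1 and 2 and hHKDC1 OE replicate 1, and of 2101 CPM or less in the other fat libraries, and its part in these values was not tested.

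In fat, Slc2a4 had 194, 243 and 172 normalized CPM under null and 201, 211 and 118 under hHKDC1 OE. Only the third hHKDC1 OE library lay below the null range, and the log2 fold change was −0.25 (SE 0.27, 95% interval −0.88 to 0.37, adjusted p = 0.622, edgeR). It was −0.027 with that library left out and −0.42 with hHKDC1 OE replicate 2 left out. Slc2a3 had 9.86, 17.9 and 18.8 CPM against 13.4, 8.54 and 11.9 (log2 fold change −0.52, SE 0.30, adjusted p = 0.391), and Slc2a1 had 13.4, 10.9 and 10.6 against 14.5, 12.4 and 12.4 (0.11, SE 0.19, 95% interval −0.33 to 0.55, adjusted p = 0.772). Both pairs of groups overlapped. For each 1000 CPM of adipocyte markers, Slc2a4 stood at 10.5 ± 1.97 CPM under null and 9.85 ± 3.32 under hHKDC1 OE. Hk2 stood at 6.41 ± 2.13 and 4.93 ± 1.24 CPM, and the part of the adipocyte markers in either value was not tested.

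Of the 50 genes on the pathway lists, 42 were tested in fat and none passed, with 12 above and 30 below null and a median of −0.24 beside −0.05 over all genes. The counts above and below were 3 and 4 for the other facilitative transporters, 3 and 11 for the glucose 6-phosphate enzymes (median −0.41), 1 and 2 for the anion channels and 5 and 13 for GLUT4 vesicle traffic (median −0.13). The glucose 6-phosphate list holds genes that were higher in liver, and the hepatocyte markers were lower in the same fat libraries (median −1.52, 10 of 10 below null). Their part in that list's values was not tested. Of the adipocyte markers 6 of 8 (median −0.33) and of the skeletal muscle markers 8 of 8 (median −0.95) were below null, and none passed. The part of either in the GLUT4 vesicle values was not tested. Slc2a6, a transporter of white blood cells, had 16, 1 and 18 counts in null and 141, 12 and 95 in hHKDC1 OE (log2 fold change 2.69, SE 1.07, adjusted p = 0.259, edgeR). In the same hHKDC1 OE libraries the B cell markers summed to 589, 32.2 and 426 CPM and the T cell markers to 316, 22.5 and 350 CPM, lowest in replicate 2 like Slc2a6, and their part in its value was not tested. The insulin receptor gene Insr had 138 ± 10.8 normalized CPM in null and 103 ± 9.91 in hHKDC1 OE (log2 fold change −0.48, SE 0.15, adjusted p = 0.179), and H6pd, hexose-6-phosphate dehydrogenase of the endoplasmic reticulum, had 381 ± 59.4 and 256 ± 51.6 (−0.63, SE 0.22, adjusted p = 0.226). Without hHKDC1 OE replicate 2, the library with the fewest of these lymphocyte markers among the 3, Slc2a6 (3.20, adjusted p = 0.0334), Insr (−0.57, adjusted p = 0.0365) and H6pd (−0.82, adjusted p = 0.0278) passed the test, where 18.9% of the genes tested did, and none of the 8 genes did. Without both libraries described as knockouts, which leaves 1 hHKDC1 OE library, the values were 3.29 for Slc2a6, −0.65 for Insr and −0.76 for H6pd. Vdac1, the anion channel of smallest p, had 245 ± 83.6 CPM in null and 179 ± 32.2 in hHKDC1 OE (adjusted p = 0.385).

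The third comparison set hHKDC1 OE against null in liver, the tissue of the transgene. None of the 7 genes tested passed the test and in none did the groups stand apart, while 12.6% of the 13351 genes tested did not overlap. In edgeR 0% of all genes were called, 6.94% had an unadjusted p under 0.05 (none of the 7), DESeq2 called 94, and limma called 3 on log2(FPKM + 1) and 5 on log2(FPKM + 0.1). No adjusted p of the 7 was below 0.813. The median log2 fold change of the 7 was −0.18, beside 0.01 over all genes tested.

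Slc2a2 had 788, 634 and 477 normalized CPM in null liver and 522, 491 and 638 in hHKDC1 OE liver, and each hHKDC1 OE library fell within the null range. The log2 fold change was −0.18 (SE 0.20, 95% interval −0.63 to 0.27, adjusted p = 0.903, edgeR). Gckr had 251, 239 and 233 CPM in null and 206, 363 and 210 in hHKDC1 OE. One hHKDC1 OE library lay above and the others below the null range. The log2 fold change of 0.13 (SE 0.23, 95% interval −0.38 to 0.65, adjusted p = 0.949) turned to −0.20 without that second hHKDC1 OE library. The summed hepatocyte markers were 166155, 157987 and 156870 CPM in null and 96671 to 129923 CPM in hHKDC1 OE, with all 10 found in both groups. Of the 10, 8 had a log2 fold change below 0 and 2 above (median −0.25), and none passed the test. Per 1000 CPM of these markers Slc2a2 was at 3.93 ± 0.856 and 4.91 ± 1.47 CPM and Gckr at 1.49 to 1.51 and 1.59 to 3.04, and the part of the marker sum was not tested.

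Slc2a1 had 16.6, 11.4 and 17.4 normalized CPM in null liver and 12.2, 10.7 and 12.4 in hHKDC1 OE liver (log2 fold change −0.34, SE 0.21, 95% interval −0.81 to 0.12, adjusted p = 0.813, edgeR). Slc2a4 had 11.1, 5.69 and 3.70 CPM against 4.78, 11.9 and 4.37 (0.08, SE 0.48, 95% interval −1.01 to 1.17, adjusted p = 0.986), and leaving out null replicate 2 or 3 or hHKDC1 OE replicate 2 turned its sign. Slc2a3 stood at 5 to 14 counts under both vectors (−0.39, SE 0.68, adjusted p = 0.951). The endothelial markers had 6 of 6 log2 fold changes below 0 in liver without passing the test (median −0.80), and summed to 112, 128 and 75.9 CPM in null and 55.5, 85.6 and 46.3 CPM in hHKDC1 OE. For each 1000 CPM of them, Slc2a1 stood at 156 ± 70.5 and 204 ± 73.2 CPM and Slc2a3 at 8.22 ± 2.62 and 11.6 ± 8.34 CPM, and their part in these values was not tested.

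The liver hexokinases were all low. Hk1 had 42, 47 and 58 counts in null and 39, 63 and 36 in hHKDC1 OE (log2 fold change −0.27, SE 0.33, adjusted p = 0.914, edgeR). Hk3 had 9, 28 and 36 counts in null and 49, 34 and 40 in hHKDC1 OE (0.59, SE 0.51, 95% interval −0.57 to 1.74, adjusted p = 0.873), with overlap. With 1 library left out the Hk3 value ran from 0.19 to 0.96, when null replicate 1 or null replicate 3 was dropped. All 8 macrophage markers were found in both groups and summed to 182 to 311 CPM in null and 271 to 523 CPM in hHKDC1 OE. All 8 neutrophil and monocyte markers were found too, at 28.9 to 61.6 CPM and 57.3 to 159 CPM. Per 1000 CPM of these lists Hk3 stood at 8.47 ± 3.73 and 8.98 ± 1.54 CPM for the macrophage list, and at 19.7 to 86.2 (mean 51.7) and 25.9 to 41.9 (mean 35.5) CPM for the neutrophil and monocyte list, and their part in the Hk3 value was not tested. Hk2 had 8, 1 and 22 counts in null and 24, 9 and 9 in hHKDC1 OE, too few to pass the filter. Its sums of 31 counts (exact 95% Poisson interval, 21.1 to 44.0) and 42 counts (30.3 to 56.8) had overlapping intervals. In the makeup of hexokinase RNA, Hk3 took a mean of 41.9% in null and 56.2% in hHKDC1 OE and Hk1 took 40.1 ± 7.40% and 27.4 ± 9.12%, with libraries of the groups overlapping in each.

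**Figure D5:**
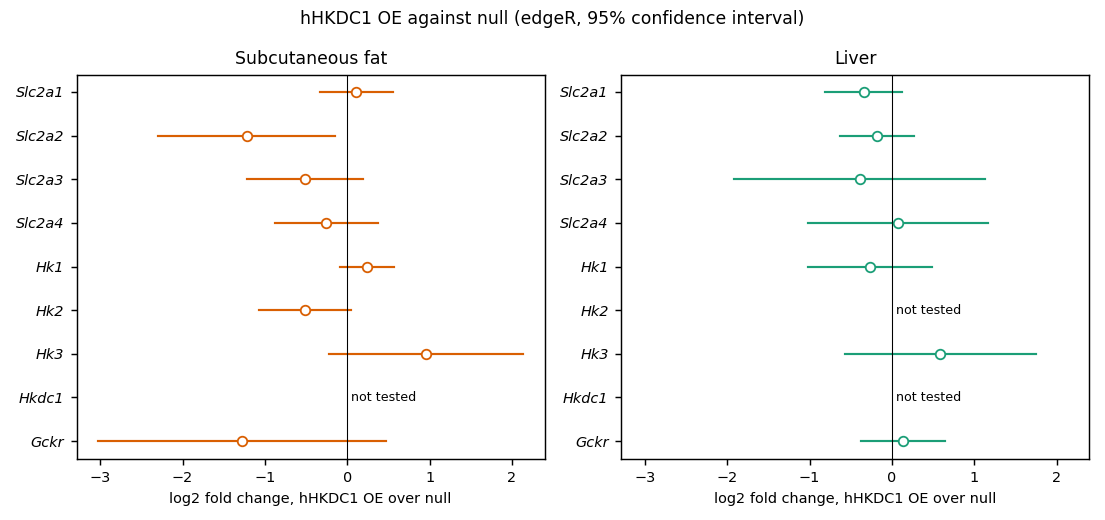
Log2 fold change of hHKDC1 OE over null in fat (left) and liver (right), with 95% confidence intervals (3 libraries against 3). Every point is open because no gene passed the test. In fat only the interval of Slc2a2 (−2.30 to −0.15) leaves out 0, before adjustment over genes. Hkdc1 in both tissues and Hk2 in liver were not tested.

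Of the 50 pathway genes, 39 were tested in liver and none passed, with 21 above and 18 below null and a median of 0.04 beside 0.01 over all genes. Slc5a1, a sodium-coupled glucose carrier, had 19, 15 and 15 counts in null and 44, 28 and 47 in hHKDC1 OE. All hHKDC1 OE libraries lay above all null libraries, and the log2 fold change was 1.11 (SE 0.41, unadjusted p = 0.0239, adjusted p = 0.621, edgeR). Trip10, which encodes an effector of the GLUT4 pathway, had 9.14 ± 2.17 normalized CPM in null and 13.4 ± 1.07 in hHKDC1 OE (0.57, SE 0.23, adjusted p = 0.652). Slc2a5 (0.35), Pgm1 (0.47) and Vdac2 (−0.13), the genes of smallest p on their lists, had adjusted p from 0.788 to 0.895.

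An interaction term over the 12 libraries tested whether the change under hHKDC1 OE differed between the tissues. None of the 8 genes tested passed, and edgeR called 0% of 17070 genes, while 12.7% had an unadjusted p under 0.05 (none of the 8), DESeq2 called 497 and limma called 0 with either pseudocount. The fat effect minus the liver effect was 0.59 for Hk1 (SE 0.28, adjusted p = 0.411), 0.53 for Slc2a1 (SE 0.28, adjusted p = 0.458), −0.96 for Slc2a2 (SE 0.52, adjusted p = 0.464) and −1.32 for Gckr (SE 0.78, adjusted p = 0.505). Hk2 (−0.73), Hk3 (0.44), Slc2a3 (−0.03) and Slc2a4 (−0.24) had adjusted p from 0.744 to 1.00. The Hk2 value rests on 1 to 24 liver counts per library. With 1 library left out, it ran from −1.90 (null liver replicate 3 dropped) to −0.011 (hHKDC1 OE liver replicate 1 dropped). For Gckr the same range was −2.38 to −0.57 and for Slc2a2 −1.45 to −0.65, the largest change with hHKDC1 OE fat replicate 1 dropped and the smallest with null fat replicate 3 dropped. Of the pathway genes 43 were tested and none passed, with Slc5a1 (−3.97, SE 1.37, adjusted p = 0.265) and Trip10 (−0.80, SE 0.28, adjusted p = 0.256) at the smallest p. H6pd (−0.79), Slc2a12 (3.61) and Vdac2 (0.22), the genes of smallest p on the other lists, had adjusted p from 0.334 to 0.750. Without the second hHKDC1 OE fat library H6pd (−1.19, adjusted p = 0.0471) and Trip10 (−1.13, adjusted p = 0.0381) passed the test, where 6.77% of the genes tested did. Slc5a1 had 0 counts in all hHKDC1 OE fat libraries, and Slc2a12 had 0 in all hHKDC1 OE liver libraries beside 4, 0 and 0 in null liver, so the fitted sizes of both depend on the prior count.

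Without the libraries described as knockouts, which leaves 1 hHKDC1 OE library a tissue that is assumed to vary like the null libraries, none of the 8 genes was called in fat, in liver or in the interaction. In fat the log2 fold changes were then 0.21 for Hk1, −0.42 for Hk2, 0.87 for Hk3, −0.76 for Slc2a2, −0.28 for Slc2a3, −0.09 for Slc2a4 and 0.24 for Slc2a1, all with the sign they had with 3 libraries. In liver Gckr (−0.21), Slc2a3 (0.40) and Slc2a4 (−0.50) changed sign, and Hk1 was −0.36, Hk3 0.97, Slc2a1 −0.31 and Slc2a2 −0.27. In the interaction Gckr was −0.065, Slc2a2 −0.42, Hk1 0.65, Hk2 −1.53, Slc2a1 0.62 and Slc2a3 −0.60, while Hk3 (−0.023) and Slc2a4 (0.50) changed sign. This alternative was chosen after seeing the data. With 1 library left out at a time, the ranges not given above were −0.71 to −0.36 for Hk2, −0.80 to −0.37 for Slc2a3 and 0.023 to 0.19 for Slc2a1 in fat. In liver they were −0.51 to −0.098 for Hk1, −0.51 to −0.22 for Slc2a1, −0.34 to −0.0036 for Slc2a2 and −1.01 to −0.088 for Slc2a3. In the interaction they were 0.32 to 0.82 for Hk1 and 0.30 to 0.70 for Slc2a1.

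The genes most like the one with the largest change in each tissue were found by the root mean square difference of log2(CPM + 0.5), each gene centred on its mean over the 6 libraries. In fat the gene of largest change was Gckr, and the 5 nearest genes were Hnf4a (0.17), Serpina1c (0.19), Ahsg (0.20), Sec14l2 (0.21) and Abcc6 (0.21), beside a root mean square of 0.94 for Gckr around its own mean. Their log2 fold changes lay between −1.57 and −1.09. Hnf4a encodes a transcription factor of hepatocytes, and Ahsg and Serpina1c, which are also on the hepatocyte marker list, encode proteins that liver secretes. In liver it was Hk3, and the nearest were Gfra2 (0.10), Utp23 (0.14), Tyrobp (0.15), Gbp8 (0.15) and Lrrc25 (0.15), beside 0.58 for Hk3. Tyrobp encodes a signalling adaptor of myeloid and natural killer cells. These are descriptions over 6 libraries that share normalization.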

How the data were processed

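RNA-seq of 12 libraries was used. Per the labels and the study's methods, the authors mapped paired reads with STAR (2.5 in the submitters' notes) and counted them per gene with HTSeq 0.6.1 from libraries that keep no strand. The counts they deposited are raw. The authors also deposited FPKM, used for 1 alternative. The methods name a human genome, but rows are mouse genes, and 98.0% of positions equal GENCODE M21 (GRCm38). Deposited fold changes, p-values and group means were not used. Counts were fitted with edgeR 4.0.16 (R 4.3.3; glmQLFit, glmQLFTest, TMM, filterByExpr, Benjamini-Hochberg over all genes tested), 2 groups a fit, 4 for the interaction, with no block. Alternatives were DESeq2 1.42.0, limma 3.58.1 on FPKM, other scalings and filters, all 12 libraries in 1 fit, the replicate block and each library left out. Single genes also had a two-sided exact permutation test. The code was tested on simulated data. The genes described and the lists were chosen with earlier results of these data known. All 9 genes were described in every comparison, and of each pathway list at most the 3 genes of smallest p in a comparison were named. RefSeq promoter windows matched 7 of the 9 genes, all but Slc2a3 and Slc2a4. At 15496019 to 19954971 counts a library, 10 counts or fewer give coarse values.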

Additional observations from a re-analysis of the deposited data

How the results depend on the processing

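Of the genes tested among the 9, 0 were called in fat, 0 in liver and 0 in the interaction under every alternative run, and in null fat against null liver 6, apart from 4 of 5 tested with at least 10 counts in every library and 7 without the second null liver library, where Slc2a1 passed. Counts over all genes moved. In fat, where edgeR called 0, DESeq2 called 1446, no filter 803, limma on log2(FPKM + 1) 1, all 12 libraries in 1 fit 876 and the replicate block 168, and leaving out 1 library gave 0 to 3251 (3251 without the second hHKDC1 OE library and 2 without null replicate 3). In liver, where edgeR called 0, DESeq2 called 94, library size alone 2, no filter 327, limma 3 and 5, and the replicate block 17, and leaving out 1 library gave 0 to 146 (146 without the second hHKDC1 OE library). In the interaction, also 0, DESeq2 called 497 and no filter 479, and leaving out 1 library gave 0 to 1211 (1211 without the second hHKDC1 OE fat library). Without the libraries described as knockouts the counts were 1024 in fat, 76 in liver and 126 in the interaction. The causes were not tested.

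Of 899 values of single genes under an alternative, 867 kept their direction and side of the threshold, 7 came to pass it with the same sign, none stopped passing it and 25 changed sign, 1 of which (Vdac2 between null tissues with library size alone) also came to pass it. In liver, leaving out 1 library gave −0.56 to 0.60 for Slc2a4 (−0.03 and −0.22 without null replicates 2 and 3) and −0.20 to 0.28 for Gckr, and without the libraries described as knockouts Gckr was −0.21, Slc2a3 0.40 and Slc2a4 −0.50. Between null tissues, library size alone gave 0.51 for Slc2a1, 0.46 for Vdac3 and 0.66 for Vdac2, and leaving out 1 library gave −0.27 to 0.58 for Hk3 (−0.08 and −0.06 without null fat replicates 1 and 3). In the interaction, leaving out 1 library gave −0.14 to 0.83 for Hk3, −0.46 to 0.58 for Slc2a3 (0.30 without null liver replicate 3), −0.79 to 0.38 for Slc2a4 (0.055 without that library), −0.58 to 4.22 for Slc2a12 and −0.072 to 0.26 for Vdac2 (−0.069 without hHKDC1 OE fat replicate 3). Slc2a12 was −0.24 and −0.33 in limma, and without the libraries described as knockouts Hk3 was −0.023 and Slc2a4 0.50.

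Replicate numbers were not taken to pair the samples, since the labels do not say so and not every same-numbered pair's correlation of deviations from the group means was over 0.1. These ran from −0.13 to 0.25, and those of differently numbered pairs from −0.22 to 0.29. Same-numbered fat and liver pairs were all positive (0.019 to 0.25). Every library correlated best with its own number between null fat and null liver and between the liver groups, but not in the other comparisons, which is a hint from the data and not the design. With the replicate block 0 of the 9 genes were called in fat, liver and the interaction and 6 between the null tissues, and Vdac3 passed there (−0.45, adjusted p = 0.0312).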
